A study of Mus musculus with 8 samples.

Results

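The tumour necrosis factor (TNF) superfamily of cytokines, its receptors and the TRAF adaptor proteins were examined in pressure-overloaded mouse hearts. Members were taken by gene name alone: every row of the deposited table whose symbol begins with Tnfsf or Tnfrsf and a number, Traf1 to Traf7, and Tnf, Lta, Ltb and Ltbr. This gave 43 of 30445 rows, namely 14 ligands, 21 receptors, 7 TRAFs and Tnfsf13os, an antisense RNA that carries the family prefix but encodes no ligand. Poly(A) RNA of hearts from C57 mice was sequenced at week 8 after transverse aortic constriction, an operation that narrows the aorta and loads the left ventricle. The groups were 4 libraries labelled wildtype and 4 labelled Mertk knockdown. All 8 came from operated animals, so no unoperated level can be set beside the values. The labels name no promoter, Cre or cell type for the knockdown and no animal for a library. What the p-values measure is the spread among libraries, and that spread may be technical.

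TNF superfamily ligands are mostly membrane-bound trimers, some of which are shed by proteases to act at a distance. Their receptors fall into those that carry a cytoplasmic death domain and can engage caspases, those that recruit TRAF proteins and activate NF-kappa-B, a family of transcription factors, and decoys that bind ligand without a full signal. In the heart, TNF is known as a cytokine made by macrophages and stressed myocytes under load, and its receptors TNFR1 (Tnfrsf1a) and TNFR2 (Tnfrsf1b) are known to have different effects on the myocardium. TWEAK (Tnfsf12) and its receptor Fn14 (Tnfrsf12a) are another pair known from injured heart muscle.

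The libraries held 59287621 to 71571173 counts. Mertk itself was at 10.4 to 12.3 CPM (counts scaled to library size, here with TMM factors) in wildtype and at 10.6 to 12.8 CPM in the libraries labelled Mertk knockdown. The groups overlapped, with a log2 fold change of 0.10 (labelled knockdown minus wildtype, SE 0.11, edgeR adjusted p = 0.766), so the gene's count did not separate the groups as labelled. Directions are given by label only. The 6 cardiomyocyte markers, among them Myh6 and Tnnt2, were above 0 in every library, as the heart label requires, and summed to 24353 to 34797 CPM in wildtype and 36568 to 41357 CPM in the labelled group. Sums of 5 endothelial markers (440 to 510 against 543 to 654 CPM) and 6 neutrophil markers (5.05 to 8.91 against 1.93 to 4.44 CPM) did not overlap between the groups either, and the part of these in any result was not tested. Of the neutrophil markers 4 were at 0 counts in at least one library, among them S100a9 and Ly6g. The 15 hepatocyte markers summed to 190 to 260 CPM in all 4 labelled knockdown libraries and to 254 CPM in wildtype replicate 1, against 9.71 to 17.6 CPM in the other wildtype libraries; 9 of the 15, Alb and Apoc3 among them, were at 0 counts in at least one library. The 5 atrial myocyte markers summed to 373 and 245 CPM in wildtype replicates 3 and 4, to 679 CPM in labelled knockdown replicate 4 and to 5.26 to 37.5 CPM in the other 5. Where they differ, results are therefore also given within the 5 libraries high in hepatocyte markers, of which 1 is wildtype. They are also given with a score of the hepatocyte markers as a covariate. The score largely follows the labels, since replicate 1 alone was high among the wildtype libraries. For the atrial markers, a subset of 6 libraries with low markers still holds wildtype replicate 4. A subset of the 5 libraries under 100 CPM leaves it out.

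No member of the family was called different between the groups. Of the 43 rows, 35 passed the filter on low counts and were tested. Of these, 0 rose and 0 fell at an adjusted p under 0.05 by the quasi-likelihood test of edgeR, where 0.647% of the 17787 genes tested were called, 0.275% higher and 0.371% lower. DESeq2 called 0 of 33 members (3.73% of its tested genes), limma-voom 0 of 35 (0.641%) and limma on log2(FPKM + 1) 0 of 35 (0.394%). At an unadjusted edgeR p under 0.05 there was 1 member, Traf4, which is 2.86% of the members against 12.4% of all tested genes. The groups overlapped for each of the 35, while they did not overlap for 8.07% of all tested genes. Fold changes were above 0 for 16 members and below 0 for 19, and the median was −0.02, beside −0.00 over all tested genes. No setting among the 22 alternatives produced a called member.

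**Figure D1:**
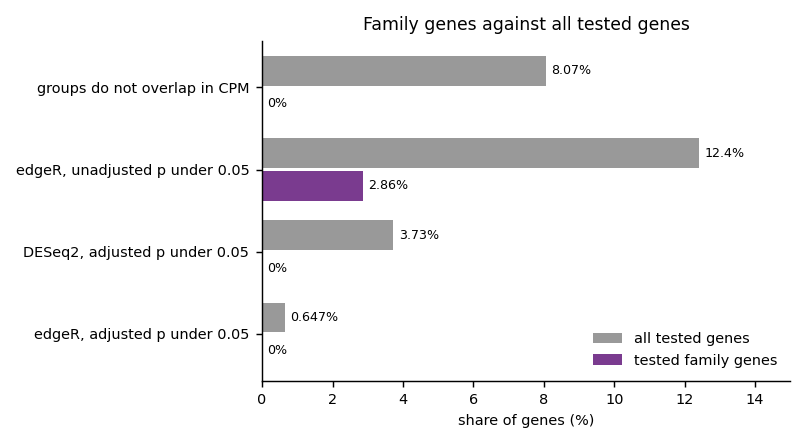
Share of genes, in percent on the horizontal axis, that met each of 4 criteria in the comparison of labelled knockdown with wildtype libraries; grey bars are all tested genes and purple bars the tested family genes. The family has no purple bar for 3 criteria because 0 members met them, and 2.86% of members against 12.4% of all genes had an unadjusted edgeR p under 0.05.

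The intervals show which differences remain possible for each gene. The tested members had a median level of 2.43 CPM against 7.54 CPM over all tested genes. The 95% interval of the fold change lay within 2-fold in both directions for 14 of the 35 members (40%), against 65.6% of all tested genes. These 14 were Tnfsf12, Tnfsf13, Tnfrsf1a, Tnfrsf12a, Tnfrsf14, Tnfrsf18, Tnfrsf21, Tnfrsf25, Ltbr and all TRAFs except Traf1 and Traf4. For 9 of them, Tnfsf12, Tnfrsf1a, Tnfrsf21, Ltbr, Traf2, Traf3, Traf5, Traf6 and Traf7, it lay within 1.5-fold. For the other 21 the interval reached past 2-fold in at least one direction.

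**Figure D2:**
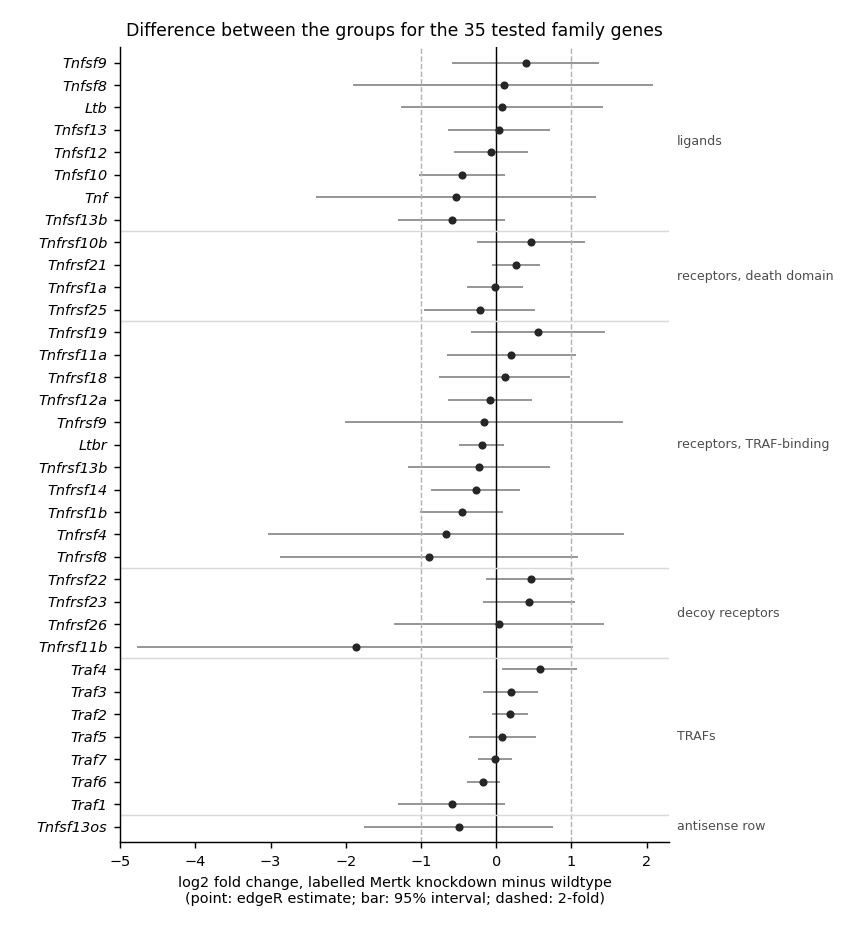
Log2 fold change (labelled Mertk knockdown minus wildtype) of each of the 35 tested family genes by role, with the edgeR estimate as a point and its 95% interval as a bar; dashed lines mark 2-fold. Only the bar of Traf4 leaves out 0, and the widest bar is that of Tnfrsf11b.

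On a per-length scale the family was dominated by receptors. FPKM (fragments scaled to transcript length and library size) of the 21 receptors summed to 50.6 ± 9.89 in wildtype and 48.6 ± 3 in the labelled knockdown libraries (SD, n = 4 each). The 14 ligands summed to 10.9 ± 2.92 and 9.66 ± 0.788, and the 7 TRAFs to 12.9 ± 1.63 and 13.7 ± 0.701. Only 13 of the 43 rows reached a mean of 1 FPKM over the 8 libraries.

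**Figure D3:**
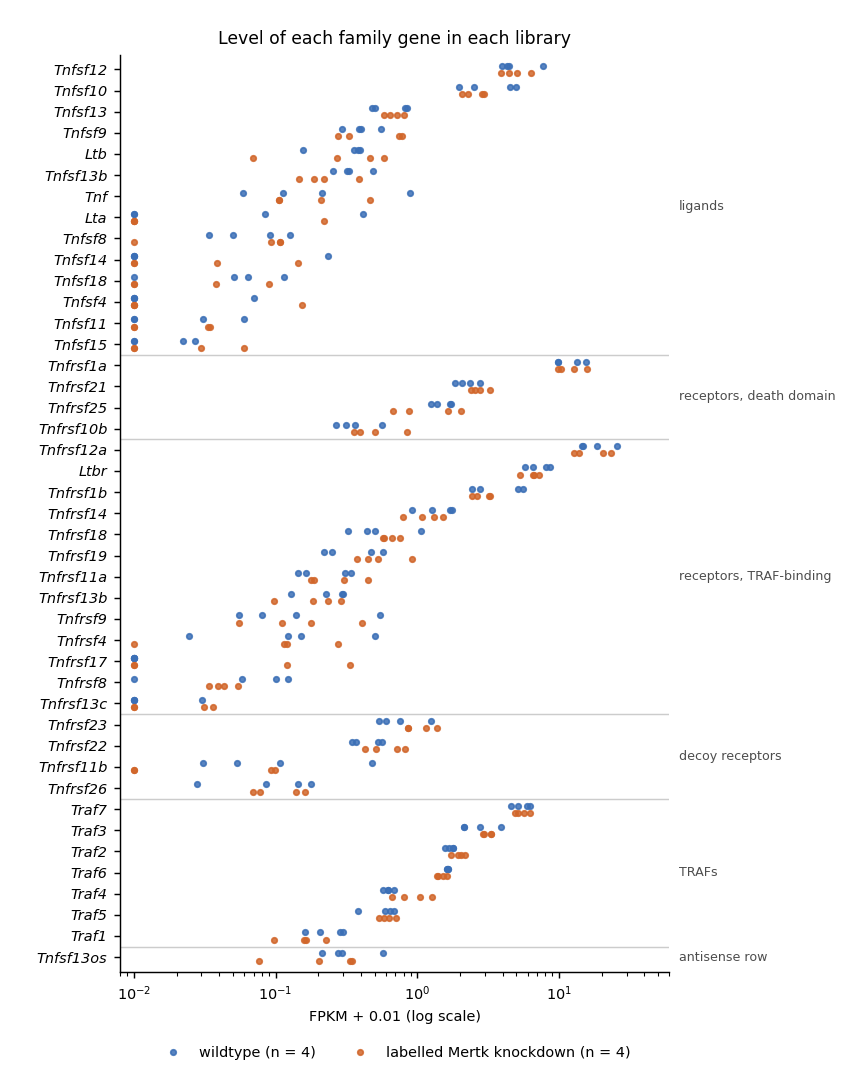
Level of each of the 43 family rows in every library, as FPKM plus 0.01 on a log scale, grouped by role and ordered by mean; blue points are the 4 wildtype and orange points the 4 labelled knockdown libraries. Points at the left edge are libraries listed at 0. Tnfrsf12a and Tnfrsf1a lead the receptors and Tnfsf12 and Tnfsf10 the ligands, and the colours overlap in every row except Traf6. On this scale the groups did not overlap for 5.03% of all 30445 rows.

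Among the ligands, Tnfsf12 and Tnfsf10 were the 2 with a mean of at least 1 FPKM. Tnfsf12 (chr11:69686250-69695849, minus strand), which encodes TWEAK, was at 7.46, 12.6, 7.17 and 6.93 CPM in wildtype replicates 1 to 4 and at 8.58, 7.34, 10.3 and 6.32 CPM in labelled knockdown replicates 1 to 4. Wildtype replicate 2 stood above all other libraries and the rest were intermixed (log2 fold change −0.07, 95% interval −0.56 to 0.42, edgeR adjusted p = 0.939). Its row overlaps Tnfsfm13, a transcript joining Tnfsf12 and Tnfsf13, and the antisense row Tnfsf13os, so reads of this locus may be shared between rows. Tnfsfm13 was at 4.42 to 7.13 CPM in wildtype and 4.47 to 6.18 CPM in the labelled group. Tnfsf13, encoding APRIL, a survival factor of plasma cells, stood at 0.649 ± 0.196 and 0.678 ± 0.1 FPKM (SD, n = 4 each), and the antisense row Tnfsf13os at 0.329 ± 0.159 and 0.23 ± 0.126 FPKM.

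Tnfsf10 (chr3:27317028-27342427, plus strand) encodes TRAIL, an interferon-inducible ligand that can trigger apoptosis. It was at 14.7, 25.4, 12.3 and 27.6 CPM in wildtype replicates 1 to 4 and at 13.5, 11.9, 16.0 and 16.7 CPM in the labelled knockdown replicates 1 to 4. Wildtype replicates 2 and 4 lay above every other library, and wildtype replicates 1 and 3 lay among the labelled ones. The edgeR fit put the log2 difference at −0.46 (SE 0.26, interval −1.03 to 0.11, adjusted p = 0.522). With the hepatocyte score as a covariate it was 0.05 (edgeR adjusted p = 0.982). That score largely follows the labels, wildtype replicate 1 apart, so the 2 values cannot show what the hepatocyte transcripts contribute.

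The same 2 wildtype libraries were the highest for macrophage markers and for interferon-stimulated genes. The 11 macrophage markers summed to 258, 381, 257 and 400 CPM in wildtype replicates 1 to 4 and to 227 to 274 CPM in the labelled libraries, with none of the 11 at 0 in any library. Fold changes were below 0 for all 11, of which edgeR called 0. The 16 interferon-stimulated genes summed to 300, 560, 350 and 579 CPM in wildtype and to 120 to 146 CPM in the labelled libraries, 9 of them called lower by edgeR. The part of either in the level of Tnfsf10 was not tested. In bulk tissue, fewer cells of a type and less RNA per cell cannot be told apart.

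Tnfsf13b (chr8:10006467-10039072, plus strand) encodes BAFF, a B cell survival factor made by myeloid cells. It was at 2.41, 3.53, 2.03 and 2.39 CPM in wildtype replicates 1 to 4 and at 1.09, 1.37, 1.60 and 2.80 CPM in labelled knockdown replicates 1 to 4. Of the labelled libraries 3 lay below all wildtype ones, and replicate 4 lay above all but wildtype replicate 2 (log2 difference −0.59, SE 0.32, interval −1.30 to 0.11, adjusted p = 0.501 by edgeR). The sign was the same in all 22 alternatives, from −1.13 to −0.13.

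Tnf (chr17:35199381-35202007, minus strand), the founding cytokine, was scarce. It was at 0.189, 0.362, 0.104 and 1.53 CPM in wildtype replicates 1 to 4 and at 0.181, 0.362, 0.799 and 0.176 CPM in labelled knockdown replicates 1 to 4. Wildtype replicate 4 held most of the wildtype signal. The log2 fold change of −0.54 (SE 0.84, 95% interval −2.40 to 1.33, edgeR adjusted p = 0.858) became 0.79 without that library, and 1.0 within the 5 libraries that carry hepatocyte transcripts, of which 1 is wildtype. A change of several fold in Tnf was thus not detectable here.

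The remaining ligands each had a mean below 1 FPKM. Ltb, which forms the membrane lymphotoxin heterotrimer with the product of Lta, and Tnfsf9, the ligand of the T cell co-stimulator 4-1BB, had means of 0.313 and 0.399 FPKM in wildtype and 0.337 and 0.521 FPKM in the labelled group. Tnfsf8, the CD30 ligand, had means of 0.0655 and 0.0699 FPKM. The ligands Lta, Tnfsf4, Tnfsf11, Tnfsf14, Tnfsf15 and Tnfsf18 did not pass the filter, and their highest count in any library was 40, 20, 8, 30, 22 and 16, respectively. Tnfsf11 encodes RANKL, the osteoclast differentiation factor. A gene at 0 counts in the shallowest library could be present at up to 0.0506 CPM there, the level of 3 counts, and this covers counting error only.

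The receptors with a death domain were led by TNFR1. Tnfrsf1a (chr6:125349362-125361874, plus strand) was at 28.6, 43.2, 30.5 and 37.1 CPM in wildtype replicates 1 to 4 and at 28.7, 29.8, 43.6 and 35.5 CPM in labelled knockdown replicates 1 to 4. Both groups covered the same range, and the difference was −0.02 on the log2 scale (SE 0.17, 95% interval −0.39 to 0.35, edgeR adjusted p = 0.981). Per length it stood at 12.2 FPKM in both groups. Tnfrsf21 (death receptor 6) followed with 2.25 ± 0.39 and 2.73 ± 0.39 FPKM and Tnfrsf25 (death receptor 3) with 1.51 ± 0.237 and 1.3 ± 0.64 FPKM. Tnfrsf10b, the only mouse TRAIL receptor with a death domain, was lower at 0.368 ± 0.129 and 0.516 ± 0.224 FPKM. The ratio of its ligand Tnfsf10 to it on the FPKM scale was 5.55 to 16.1 in wildtype and 3.52 to 5.91 in the labelled group, ranges that overlap.

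Fn14 had the highest mean FPKM of all members. Tnfrsf12a (chr17:23675445-23677468, minus strand) was at 31.5, 53.0, 42.7 and 30.2 CPM in wildtype replicates 1 to 4 and at 50.7, 43.1, 28.7 and 26.6 CPM in the labelled knockdown replicates 1 to 4. The libraries of the groups were intermixed (log2 fold change −0.08, SE 0.25, 95% interval −0.64 to 0.48, edgeR adjusted p = 0.938). Its FPKM was 2.18 to 4.68 times that of its ligand Tnfsf12 over the 8 libraries.

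TNFR2 varied mainly within wildtype. Tnfrsf1b (chr4:145213463-145246870, minus strand) was at 11.7, 21, 11 and 22.6 CPM in wildtype replicates 1 to 4 and at 13.7, 13.7, 9.89 and 10.7 CPM in labelled knockdown replicates 1 to 4. As for Tnfsf10, wildtype replicates 2 and 4 lay above all other libraries, and the macrophage marker sums given above were highest in the same 2; their part in it was not tested. The edgeR fit put the log2 difference at −0.46 (SE 0.25, interval −1.02 to 0.09, adjusted p = 0.505). With the hepatocyte score as a covariate it was 0.12 (edgeR adjusted p = 0.953), with the same limit as for Tnfsf10. The ratio of Tnfrsf1b to Tnfrsf1a on the FPKM scale ran from 0.244 to 0.412 in wildtype and from 0.154 to 0.325 in the labelled group.

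**Figure D4:**
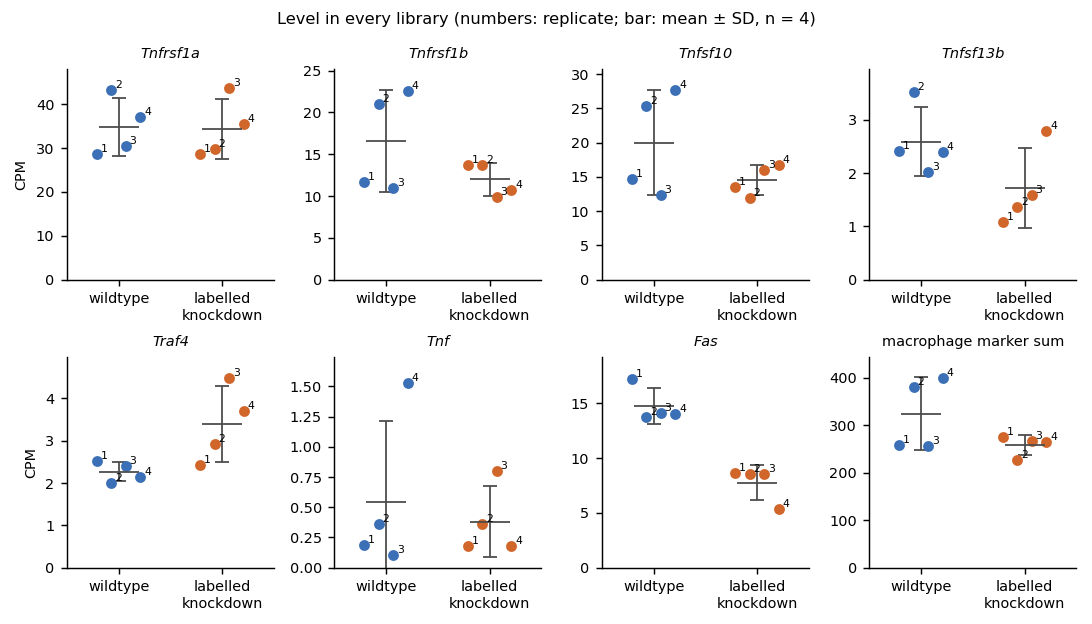
CPM in every library for 6 family genes, for Fas and for the sum of the macrophage markers; blue points are wildtype and orange points labelled knockdown libraries, numbered by replicate, with the mean and SD of 4 (the lower bar of Tnf in wildtype is cut at 0). Wildtype replicates 2 and 4 are high for Tnfrsf1b, Tnfsf10 and the macrophage sum, and only Fas shows groups that do not overlap.

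Of the other receptors that bind TRAFs, Ltbr, the lymphotoxin beta receptor, was at 7.26 ± 1.38 FPKM in wildtype and 6.44 ± 0.796 FPKM in the labelled group (SD, n = 4 each). Tnfrsf14, the herpesvirus entry mediator on lymphocytes and epithelia, was at 1.4 ± 0.393 and 1.16 ± 0.31 FPKM. Tnfrsf19, a receptor of progenitor cells also called TROY, was at 0.367 ± 0.169 and 0.556 ± 0.24 FPKM. Tnfrsf11a, which encodes RANK, and the lymphocyte receptors Tnfrsf4, Tnfrsf8, Tnfrsf9, Tnfrsf13b and Tnfrsf18 had group means from 0.0326 to 0.633 FPKM. Tnfrsf13c and Tnfrsf17, the BAFF receptor and the plasma cell receptor BCMA, did not pass the filter, with highest counts of 4 and 20. The 11 tested receptors of this kind had a median log2 fold change of −0.19, with 8 below 0 (72.7%, against 50.1% of all tested genes). Of the 11, 0 had an unadjusted edgeR p under 0.05, and whether the shares differ was not tested.

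Of the decoys, Tnfrsf11b (chr15:54250619-54278484, minus strand), which encodes osteoprotegerin, the soluble decoy of RANKL, had the largest fold change of the family and one of the lowest counts. It was at 0.315, 1.43, 0.0694 and 0.136 CPM in wildtype replicates 1 to 4 and at 0, 0, 0.251 and 0.279 CPM in labelled knockdown replicates 1 to 4. A single library, wildtype replicate 2, stood apart, and without it the log2 fold change went from −1.87 (SE 1.29, 95% interval −4.77 to 1.02, edgeR adjusted p = 0.617) to −0.38. The TRAIL-binding decoys Tnfrsf22 and Tnfrsf23 are neighbouring similar copies on chromosome 7, so their separate counts are uncertain. They were at 0.441 ± 0.109 and 0.775 ± 0.322 FPKM in wildtype and at 0.611 ± 0.182 and 1.05 ± 0.247 FPKM in the labelled group. Tnfrsf23 alone exceeded the signalling receptor Tnfrsf10b in every library, by 1.02 to 3.52 times per length. Tnfrsf26, their neighbour, was at 0.099 ± 0.066 and 0.102 ± 0.0454 FPKM.

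Of the 7 TRAFs 5 had an interval within 2-fold, and fold changes were below 0 for 3 and above 0 for 4. Traf4 (chr11:78158499-78165589, minus strand), an adaptor known from epithelial and neural development, was the member with the smallest p. It was at 2.52, 2.01, 2.41 and 2.15 CPM in wildtype replicates 1 to 4 and at 2.43, 2.93, 4.48 and 3.71 CPM in labelled knockdown replicates 1 to 4. Labelled replicates 2 to 4 lay above all wildtype libraries and replicate 1 among them. The edgeR fit put the log2 difference at 0.58 (SE 0.22, interval 0.08 to 1.07, adjusted p = 0.327), and over the alternatives it stayed between 0.25 and 0.71 with an adjusted p of at least 0.209.

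Traf2 and Traf6 had intervals within 1.5-fold. Traf2 (chr2:25517982-25546940, minus strand), the adaptor of TNFR1 and TNFR2 complexes, was at 8.97, 9.82, 10.1 and 9.60 CPM in wildtype replicates 1 to 4 and at 11.1, 9.76, 11.1 and 11.8 CPM in labelled knockdown replicates 1 to 4. Only labelled replicate 2 fell within the wildtype range (log2 fold change 0.18, SE 0.11, 95% interval −0.05 to 0.42, edgeR adjusted p = 0.534). Traf6 (chr2:101678429-101701669, plus strand), which also serves interleukin-1 and Toll-like receptors, was at 14.3, 13.7, 15.3 and 13.8 CPM and at 12.5, 14, 11.5 and 12.8 CPM. Again only labelled replicate 2 overlapped wildtype, here from the other side (log2 fold change −0.17, SE 0.10, 95% interval −0.39 to 0.05, edgeR adjusted p = 0.546). On the deposited FPKM scale the groups of Traf6 did not overlap, at 1.63 ± 0.00871 against 1.47 ± 0.112 FPKM (SD, n = 4 each). Labelled replicate 2, at 1.61 FPKM, lay just below wildtype replicates 1 and 2, at 1.62 FPKM each. Over all tested genes the groups did not overlap on this scale for 7.67%, against 2.86% of the tested members.

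Traf7, a ubiquitin ligase without the usual TRAF domain, and Traf3, which restrains non-canonical NF-kappa-B signalling, were the most abundant TRAFs per length, at 5.48 ± 0.752 and 2.72 ± 0.826 FPKM in wildtype and 5.47 ± 0.602 and 3.12 ± 0.226 FPKM in the labelled group. Traf5 stood at 0.566 ± 0.135 and 0.606 ± 0.0722 FPKM. Traf1, an NF-kappa-B inducible adaptor of lymphocytes, was the lowest at 0.228 ± 0.0658 and 0.152 ± 0.0532 FPKM.

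Promoter sequences are shown for members with a match to a motif of interferon or NF-kappa-B signalling, because interferon-stimulated genes were lower in the labelled libraries while the family was not called. RefSeq promoters on GRCm38 were found for 35 of the 43 members (39 start sites), and the 250 bases upstream of each were searched on both strands. The core of the interferon-stimulated response element, GAAANNGAAA, was in 4 of the 39 windows (10.3%) and in 2.98% of all 32851 windows. The tested members with a match were Tnfrsf1b (chr4:145246871-145246905, minus strand), Tnfrsf14 (chr4:154928122-154928151, minus strand) and the downstream start of Tnfsf13b (chr8:10006607-10006632, plus strand), shown 5′ to 3′ on the strand of the gene with the match in capitals. The RefSeq start of Tnfrsf14 used here also lies downstream of the gene's 5′ end in the table, and its window and that of Tnfsf13b overlap an annotated exon. In the first 2 the match is on the opposite strand.
Tnfrsf1b: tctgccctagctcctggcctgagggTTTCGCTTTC
Tnfrsf14: ctattttttcTTTCATTTTCacttttcctt
Tnfsf13b: tacaaaaactGAAAGTGAAAtgcgga

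Their log2 fold changes were −0.46, −0.27 and −0.59, each with an interval that held 0. Tnfsf10 had no match in its window, which says only that these letters are not there. The kappa-B decamer consensus was in 5 of the 39 member windows (12.8%) and in 7.25% of all windows, with overlapping matches counted once per window. Shown in the same way are Traf3 (chr12:111166335-111166369, plus strand) and Ltb (chr17:35194410-35194439, plus strand), the match in Ltb being on the opposite strand and its window overlapping an annotated exon.
Traf3: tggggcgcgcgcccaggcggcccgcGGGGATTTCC
Ltb: aagggtgttcGGAAAGTCCCcgggcagggg

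These members had log2 fold changes of 0.19 and 0.08. The other 3 were Tnfrsf8, Tnfrsf9 and Tnfrsf25, at −0.90, −0.16 and −0.22, and the interval of each of the 5 held 0. A match describes the letters of a window and is not evidence of a bound site.

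Family genes that do not carry the family name were counted from a separate list of 13, of which 11 were in the table and 10 were tested. By edgeR 1 of the 10 was called, against 0.647% of all tested genes, and it fell: Fas (chr19:34290666-34327772, plus strand), the death receptor of Fas ligand. It was at 17.2, 13.8, 14.1 and 14 CPM in wildtype replicates 1 to 4 and at 8.64, 8.53, 8.60 and 5.33 CPM in labelled knockdown replicates 1 to 4. The highest labelled library was thus below the lowest wildtype one. Groups did not overlap for 1 of the 10, against 8.07% of all tested genes. By edgeR the log2 difference was −0.93 (SE 0.17, interval −1.30 to −0.56), with an edgeR adjusted p of 0.0428 and a DESeq2 adjusted p of 7.663e-05. The log2 difference stayed between −1.15 and −0.76 over the 22 alternatives, while the adjusted p was no longer under the threshold in 14 of them. Leaving out any single library except labelled knockdown replicate 4 lost the call (edgeR adjusted p of 0.0525 to 0.0983), with values of −0.98 to −0.78. Among the 5 libraries carrying hepatocyte transcripts it was −1.14 (edgeR adjusted p = 0.200), but the only wildtype library there is replicate 1, the highest of all for Fas. Rell1, a RELT-like membrane protein, and Eda2r, the receptor of ectodysplasin A2, had log2 fold changes of 0.67 and 0.44 (edgeR adjusted p = 0.146 and 0.447). Rell1 was called higher by DESeq2 (adjusted p = 0.0206), which called 3.73% of its tested genes, and by edgeR without wildtype replicate 2 (0.85, adjusted p = 0.0482). Whether Fas differed from the named receptors in its change was not tested.

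Downstream of the receptors no listed gene was called by edgeR. Of the 25 adaptors, kinases and ubiquitin enzymes near the receptor, 0 were called and 3 had an unadjusted p under 0.05, all lower, a share near the 12.4% of all tested genes. The rule that names the smallest p of each list gives Birc2, which encodes the ubiquitin ligase cIAP1, Rnf31, the catalytic subunit of the linear ubiquitin ligase LUBAC, and Otulin, which removes linear ubiquitin, with log2 fold changes of −0.37, −0.34 and −0.34 (edgeR adjusted p = 0.143, 0.255 and 0.319). The groups did not overlap for 1 of the 25, Birc2, against 8.07% of all tested genes. The median of this list was −0.05.

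Of 13 NF-kappa-B subunits, inhibitors and kinases, 0 were called. Rel, the c-Rel subunit, had 0.67 and Nfkbia, the inhibitor I-kappa-B alpha and itself an NF-kappa-B target, −0.68 (edgeR adjusted p = 0.109 and 0.134). The groups did not overlap for these 2 of the 13, against 8.07% of all tested genes. Levels were 8.1 ± 1.15 against 12.9 ± 2.46 CPM for Rel and 31.6 ± 3.46 against 19.8 ± 5.28 CPM for Nfkbia (SD, n = 4 each). Both were called by DESeq2 (adjusted p = 0.00817 and 0.0120), which called 3.73% of its tested genes. Without labelled knockdown replicate 2 edgeR called Nfkbia as well (−0.88, adjusted p = 0.0273). Nfkbib had 0.23 (edgeR adjusted p = 0.459), and the list median was −0.00.

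Of 17 response genes of TNF and NF-kappa-B, 16 were tested and 0 called. At an unadjusted edgeR p under 0.05, 4 of the 16 were lower (Cxcl10, Ier3, Icam1 and Ccl5) and 1 higher (Sod2). Over all tested genes this share was 12.4%. Ccl5 was at 26.3 CPM in wildtype replicate 4 and at most at 1.17 CPM elsewhere. Groups did not overlap for 3 of the 16, Cxcl10, Ier3 and Sod2, against 8.07% of all tested genes. Cxcl10, a chemokine that is also interferon-inducible, had a log2 fold change of −1.34, Ier3, an early response gene, −0.93, and Icam1, the leukocyte adhesion molecule, −0.40 (edgeR adjusted p = 0.125, 0.221 and 0.274). DESeq2 called Cxcl10 and Ier3 (adjusted p = 0.00859 and 0.0143), beside 3.73% of its tested genes. Of the list 8 were below 0 and 8 above, with a median of 0.03.

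Among 6 genes of ectodomain shedding, the step that releases TNF and its receptors from the membrane, 0 were called. Rhbdf2, the iRhom2 cofactor that brings the sheddase ADAM17 to the surface, was at 13.1 ± 1.33 and 16.6 ± 0.948 CPM, and Timp3, an inhibitor of ADAM17, at 376 ± 68.4 and 234 ± 90.2 CPM (SD, n = 4 each). The groups did not overlap for these 2 of the 6, against 8.07% of all tested genes. Their log2 fold changes were 0.34 and −0.68 (edgeR adjusted p = 0.205 and 0.342). Adam17 had 0.23 (edgeR adjusted p = 0.461).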

How the data were processed

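The deposited table gives, per the file headers, whole-number read counts and FPKM for each gene in 8 libraries. The submitters' processing notes list build mm10 and the tools HISAT2 2.2.1, StringTie 2.1.6, cutadapt 1.9, edgeR and DESeq2, without saying what each did. Whether counting used strand: not given in the sources used here. Coordinates are those of the table.

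The deposited counts were fitted over all genes with edgeR 4.0.16 (TMM, filterByExpr, robust glmQLFit, glmQLFTest, two-sided, no covariate) in R 4.3.3, with Benjamini-Hochberg adjustment over 17787 genes. SE is the fold change divided by the square root of F, and the 95% interval uses the t quantile of the total degrees of freedom. The fit was first tested on simulated data. At an adjusted p under 0.05 it recovered 10.9% of changes of 1.5-fold, 50% of 2-fold and 85.9% of 4-fold. These changes were set in genes drawn from all those tested, so the shares are not those of the family. The deposited FPKM were used for levels and, as log2(FPKM + 1) or log2(FPKM + 0.1), in limma 3.58.1. Fold changes on those scales are understated for low genes. DESeq2 1.42.0 and limma-voom were further alternatives.

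Members, lists and rules were chosen with earlier results of these data known. Values in every library, fold change and test are given for members called, with an unadjusted p under 0.05 or without overlap, and for 10 genes named by the rule whatever their values; of each pathway list, called genes and the 3 of smallest p. Receptors were grouped by textbook role. Counts of the 13 members that overlap another row are uncertain.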

Additional observations from a re-analysis of the deposited data

Results flagged for a closer look

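Single libraries that stood apart from the other 3 of their group were searched for in 100 groups (50 genes, of which 35 are tested family members), by the gap to the nearest library as a share of the group's range. Chance marks about 1 in 20 groups, and the groups marked here, all listed below, were no more than that share. Tnfsf12 in wildtype replicate 2 was at 12.6 CPM, above 6.93 to 7.46 CPM in the others (share 0.905). Ltb in wildtype replicate 2 was at 0.241 CPM, below 0.611 to 0.678 CPM (share 0.846). Tnfsf8 in labelled knockdown replicate 3 was at 0 CPM, below 0.352 to 0.423 CPM (share 0.833), a gene of few counts. Fas stood out in both groups: wildtype replicate 1 was at 17.2 CPM, above 13.8 to 14.1 CPM (share 0.925), and labelled knockdown replicate 4 at 5.33 CPM, below 8.53 to 8.64 CPM (share 0.967). Both deviations of Fas widen the difference between the groups.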

How the results depend on the processing

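In all 22 alternatives 0 members were called in either direction, including the 1 added after the data were seen (the 5 libraries under 100 CPM of atrial markers). The count of all called genes was 604 with DESeq2, 70 and 69 with log2(FPKM + 1) and log2(FPKM + 0.1), 21 with log2(FPKM + 1) and no filter, 13 with the hepatocyte score as a covariate, 42 within the 5 libraries with hepatocyte transcripts, 23 within the 6 with low atrial markers, 6 within the 5 under 100 CPM of them, and 44 to 265 leaving out 1 library. Members at an unadjusted p under 0.05 numbered 2 of 43 without a filter (9.07% of all genes) and 2 of 43 with DESeq2 (8.33%). Within the low-atrial libraries they numbered 2 of 35 (9.28%), and leaving out 1 library 0 to 3 of 35 (10.4% to 12.5%). With the hepatocyte covariate there were 2 of 35, and the share of all genes was not computed. Of the list genes, Rell1 and Nfkbia each gained an edgeR call on leaving out 1 library. Groups did not overlap for 1 member on each FPKM scale (7.67% of all genes, 5.03% unfiltered) and within the low-atrial libraries (15.3%), 3 of 37 under 100 CPM of atrial markers (23.2%), 21 of 41 within the hepatocyte-bearing libraries, where wildtype is a single library (45.3%), and 0 to 2 leaving out 1 library (10.8% to 13%). With at least 1 CPM in 4 libraries, fewer members were tested and 12 were below 0. The median over members was −0.13 to 0.02 leaving out 1 library. Signs turned for 6 of the 11 members with full statistics, never with an adjusted p under 0.740: Tnfrsf1a was 0.00 with upper quartile factors and on all 3 FPKM scales; with the hepatocyte covariate Tnfrsf12a was 0.22, Tnf 1.22, Tnfrsf1b 0.12, Tnfrsf1a 0.29, Tnfsf10 0.05 and Tnfsf12 0.13; within the hepatocyte-bearing libraries Tnfrsf12a was 0.25, Tnf 1.0, Tnfrsf1b 0.05, Tnfrsf1a 0.27 and Tnfsf12 0.13; Tnfrsf12a was 0.10 with low atrial markers and Tnf 0.70 under 100 CPM of them. Leaving out 1 library, Tnf ran from −1.19 to 0.79, Tnfrsf12a from −0.26 to 0.11, Tnfrsf1a from −0.15 to 0.11 and Tnfsf12 from −0.20 to 0.18. The cause was not tested; where 1 wildtype library is left, it is assumed to vary like the labelled ones. With the replicate number as a block 24 genes were called, 0 of them members, and Fas had an adjusted p of 0.0778. Correlations of same-numbered libraries were 0.082, −0.0799, −0.0801 and 0.2303, beside −0.2207 to 0.1445 for differently numbered ones. The value for replicates 4 was the largest of all. Whether the number marks a pair or a batch cannot be told from so few values. Intervals were within 2-fold for 14 of 35 members; how much of their width is depth and how much spread between libraries was not tested.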

Other observations

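Several lymphocyte members of low level were highest in the same library, a set chosen after the values were seen. Wildtype replicate 1 had the highest level of all 8 libraries for Tnfrsf9 (1.64 CPM), Tnfrsf18 (1.83), Tnfrsf4 (0.773), Tnfrsf13b (0.899), Tnfrsf8 (0.442), Tnfsf8 (0.505), Lta (0.631) and Tnfsf14 (0.473), genes known from activated lymphocytes. For Tnfrsf13b wildtype replicate 4 was close, at 0.883 CPM. Other lymphocyte members were highest elsewhere. Among them were Ltb, Tnfsf4 and Tnfrsf17 in labelled knockdown replicate 2 and Tnfsf9 and Tnfrsf13c in labelled knockdown replicate 1. Traf1 and Tnfrsf14 were highest in wildtype replicate 4. Over the 35 tested members wildtype replicate 1 was highest for 7, as many as wildtype replicate 2, beside 13.3% and 16.3% of all tested genes. The 8 T cell markers summed to 9.67 CPM in wildtype replicate 1, the highest of the 8 libraries, and to 1.31 to 8.14 CPM elsewhere. Of these Cd3d, Cd3e and Cd2 were at 0 counts in at least one library. Markers of B cells and natural killer cells were not highest in that library. The 6 B cell markers summed to 5.9 CPM in it, within a range of 5.01 to 13.1 CPM over all libraries. The 4 natural killer cell markers summed to 1.04 CPM, within 0.125 to 1.32 CPM. The part of these markers in the levels of the members was not tested, and the library was 1 of 4 wildtype ones.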
